A study of Homo sapiens with 59 samples.

Results

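The comparison described here set THP-1 cells that had received rosiglitazone (RSG) for 12 h against cells that had received the vehicle DMSO for 12 h. THP-1 is a human monocytic leukaemia line, and each culture had first been turned into macrophage-like cells with 10 ng/ml of the phorbol ester PMA for 40 h and then left for 2 h without PMA. RSG was given at 1 µM. The members were the arrays whose labels give the treatment and the time of 12 h, which were 6 RSG and 6 DMSO arrays of 59 Illumina bead arrays in all, and the other arrays held the same 2 treatments at 0.5, 1.5, 3 and 8 h. The labels do not say whether the arrays of a group come from separate cultures, so the p-values measure the spread between these samples, which may be technical, and their number limits the precision of every value. All values belong to 1 leukaemia line, and since RNA came from whole cultures, fewer cells of a kind and less RNA per cell cannot be told apart.

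RSG is a synthetic ligand of PPARG, a nuclear receptor that binds DNA as a heterodimer with RXR and raises transcription of its targets when a ligand is bound. In macrophages PPARG is best known for genes of fatty acid uptake, storage and oxidation, for cholesterol export through the LXR receptors, and for dampening inflammatory genes. Genes that need new protein or new lipid metabolites to respond can follow the direct targets by hours, so a late time holds both kinds.

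The 12 arrays were not alike within their groups. RSG replicates 2 and 5 and DMSO replicates 4 and 6 carried a strong inflammatory profile, which was known from earlier results of these data. Averaged over 30 genes of inflammatory cytokines and NF-kB, the log2 intensity was 10.13 and 9.68 on the RSG and 10.05 and 10.07 on the DMSO arrays of this kind, against at most 7.12 on the 4 other RSG arrays and at most 7.29 on the 4 other DMSO arrays. For 37 interferon response genes the levels were 11.71 and 10.30 in RSG and 11.55 and 11.66 in DMSO, against 7.55 to 7.82 and 7.46 to 7.87 on the others. Their median correlation with the rest of the series was 0.892 to 0.930, against 0.961 to 0.974 for the other 12 h arrays. The array labelled RSG replicate 2 correlated at 0.992 with each of the inflammatory DMSO arrays and at 0.977 with RSG replicate 5. RSG replicate 5 stood apart from all 3, since it correlated at only 0.983 and 0.978 with DMSO replicates 4 and 6. Mean raw signal ran from 318 to 1396 over the 12 arrays, lowest on DMSO replicate 2, with 12513 to 13912 probes detected. Of 22 macrophage markers 17 were detected on all 12 arrays, among them CD14 at 12.64 to 13.21 on the 8 arrays without the inflammatory profile. These and the markers of other cells were counted only among those already detected on 5 or more arrays of the series. Detected on all 12 were 0 of 2 epithelial, 1 of 4 fibroblast, 1 of 3 T cell and 2 of 4 B cell genes. The same held for 4 of 5 NK cell, 4 of 7 granulocyte and mast cell, 2 of 4 endothelial and 3 of 6 adipocyte genes. Before that filter the array held 8 epithelial, 10 fibroblast, 10 T cell, 8 B cell and 9 NK cell markers. It also held 12 granulocyte and mast cell, 8 endothelial, 10 adipocyte and 27 macrophage markers. The part of other cells in the results was not tested. Results are therefore given with all arrays, which is 6 against 6, and without the 4 inflammatory arrays, which is 4 against 4. The second fit also left out RSG 8 h replicate 1, which has the same profile, and so held 54 arrays.

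Without the inflammatory arrays, RSG raised 134 genes and lowered 76 at 12 h, which is 1.16% and 0.66% of the 11515 genes tested (1.82% together; limma, adjusted p under 0.05). The median change was a log2 difference of 0.67 among the genes that rose and -0.59 among those that fell, and 27 rises but 6 falls passed a log2 value of 1. The RSG and DMSO arrays did not overlap for 170 of the 210 called genes, beside 2.69% of all genes tested that lay wholly higher and 2.87% wholly lower. The count of 210 depended on the other arrays in the fit, which also left out RSG 8 h replicate 1. With that array kept, 67 genes were called, 48 higher and 19 lower. With only the groups compared in the fit, 59 genes were called, 47 higher and 12 lower. With all arrays 3 genes were called, or 0.0261% of those tested, namely RDH10, FFAR2 and GPR34. Each of the 134 rises and 76 falls kept its sign there. That fit includes the 8 arrays on which these genes were picked, so the kept signs were no separate check. Between the inflammatory arrays alone, 72 of the 134 rises were positive and 20 of the 76 falls negative. With the inflammatory profile as a block in the fit of all arrays, 44 genes were called, or 0.382%, and all 44 were among the 210. Leaving out the array labelled RSG replicate 2 alone brought the count with all arrays to 33, and leaving out RSG replicate 5 alone brought it to 11. In the fits that left out 1 of the 8 arrays, between 119 and 228 genes were called, lowest without DMSO replicate 2 and without RSG replicate 1, and 81 of the 210 genes were called in all 8 fits. Every call named below held in these 8 fits unless a smaller number is given. The plot of all genes tested shows the longer arm of rises.

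**Figure D1:**
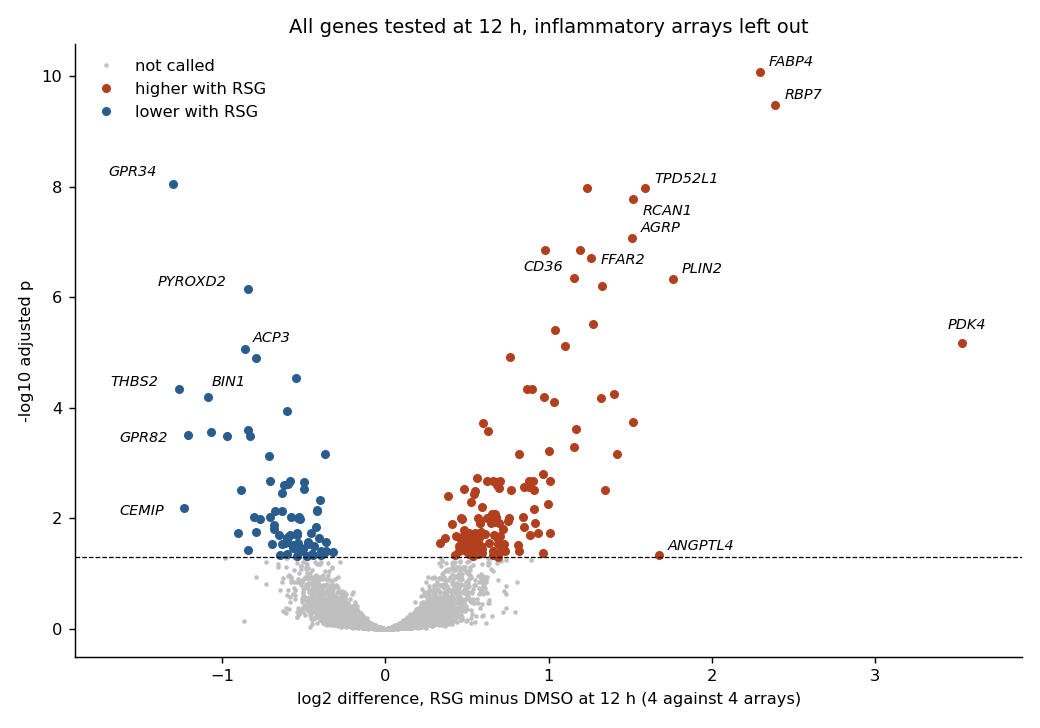
Log2 difference between RSG and DMSO at 12 h (x axis, 4 against 4 arrays) and -log10 of limma's adjusted p (y axis) for 11515 genes, with 134 genes higher with RSG in red, 76 lower in blue and the rest in grey. PDK4 at 3.53 lies far to the right of all others, and GPR34, not detected with RSG, has a fitted difference of -1.30.

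The receptor itself moved little. PPARG had log2 intensities of 11.24, 11.18, 11.25 and 11.41 on RSG replicates 1, 3, 4 and 6, against 11.31, 10.96, 10.96 and 10.89 on DMSO replicates 1, 2, 3 and 5. The ranges overlapped through DMSO replicate 1, and the log2 difference of 0.24 (SE 0.09) did not pass limma's test (adjusted p = 0.242). RXRA, its partner, had a log2 difference of -0.14 (SE 0.14, adjusted p = 0.823). In a list of 20 other nuclear receptors and cofactors none was called by limma (3 at an unadjusted p under 0.05). The list's median log2 difference was -0.15 beside -0.02 over all genes. That list left out the nuclear receptors NR1H3 and RARA, which were counted in other lists and rose, as given below.

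Of 35 genes of lipid uptake and storage that were tested, 5 rose and 0 fell, which is 14.3% called, beside 1.82% of all genes tested. The 5 were FABP4, PLIN2, ANGPTL4, VLDLR and CD36, while the median over the list was 0.07. PLIN2, a protein that coats lipid droplets, stood at 14.50, 14.39, 14.62 and 14.59 on the RSG arrays, against 12.91, 12.61, 12.79 and 12.77 on the DMSO arrays. The groups lay far apart, with 14.53 ± 0.10 for RSG and 12.77 ± 0.12 for DMSO (SD, n = 4 each), a 3.39-fold rise (SE of the log2 difference 0.23, adjusted p = 4.55e-07). On the inflammatory arrays PLIN2 was 10.10 and 13.18 with RSG, against 11.49 and 11.47 with DMSO, so that the array labelled RSG replicate 2 lay below both DMSO arrays and RSG replicate 5 above them. With all arrays its log2 difference was 1.23 (SE 0.48, adjusted p = 1.00).

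FABP4, a carrier of fatty acids inside adipocytes and macrophages, had 12.22, 12.26, 12.37 and 12.68 with RSG and 9.61, 10.28, 10.06 and 10.41 with DMSO. Every RSG array was above every DMSO array, and the gene rose 4.90-fold (log2 SE 0.21, adjusted p = 8.26e-11), the smallest adjusted p of the comparison. The inflammatory DMSO arrays held FABP4 at 11.56 and 11.65, well above the other DMSO arrays, and the inflammatory RSG arrays at 10.02 and 11.83. Within those 4 arrays the log2 difference was therefore -0.68, and with all arrays it was 1.30 (SE 0.31, adjusted p = 0.202).

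CD36, a scavenger receptor that also takes up fatty acids, stood at 13.08, 12.81, 13.08 and 13.10 with RSG, against 11.96, 11.61, 11.85 and 12.04 with DMSO. It rose 2.22-fold with no overlap (log2 SE 0.15, adjusted p = 4.44e-07), and a second probe of CD36 gave a log2 difference of 1.55. VLDLR, the receptor for very low density lipoprotein, had 8.56, 8.36, 8.16 and 8.05 with RSG and 6.82, 7.05, 6.90 and 7.07 with DMSO. The rise was 2.51-fold (log2 SE 0.17, adjusted p = 6.16e-07). GPAT3, an enzyme of triglyceride synthesis that was picked after its values had been seen, rose by a log2 difference of 0.91 (SE 0.22, adjusted p = 0.0121), though not without DMSO replicate 5 (0.73) or without RSG replicate 6.

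ANGPTL4, a secreted inhibitor of lipoprotein lipase, was the least firm of the group. Its levels were 7.26, 7.38, 6.64 and 7.37 with RSG, against 5.67, 5.14, 5.64 and 5.50 with DMSO. The arrays did not overlap and the log2 difference was 1.68, but the SE of 0.47 from the spread over all 10 groups left an adjusted p of 0.0464. The call held in 1 of the 8 fits without 1 array, with log2 differences of 1.56 to 1.85. A second, dimmer probe, with mean levels of 4.74 in RSG and 4.58 in DMSO, gave 0.15. On the inflammatory arrays ANGPTL4 was 5.82 and 5.74 with RSG and 5.87 and 5.92 with DMSO. FABP5, a relative of FABP4, was higher on every RSG array, at 6.96 to 8.35 against 6.63 to 6.78 in DMSO, yet did not pass the test (0.79, SE 0.41, adjusted p = 0.498). LPL, the lipase that ANGPTL4 inhibits, overlapped between groups (-0.28, SE 0.18, adjusted p = 0.631).

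**Figure D2:**
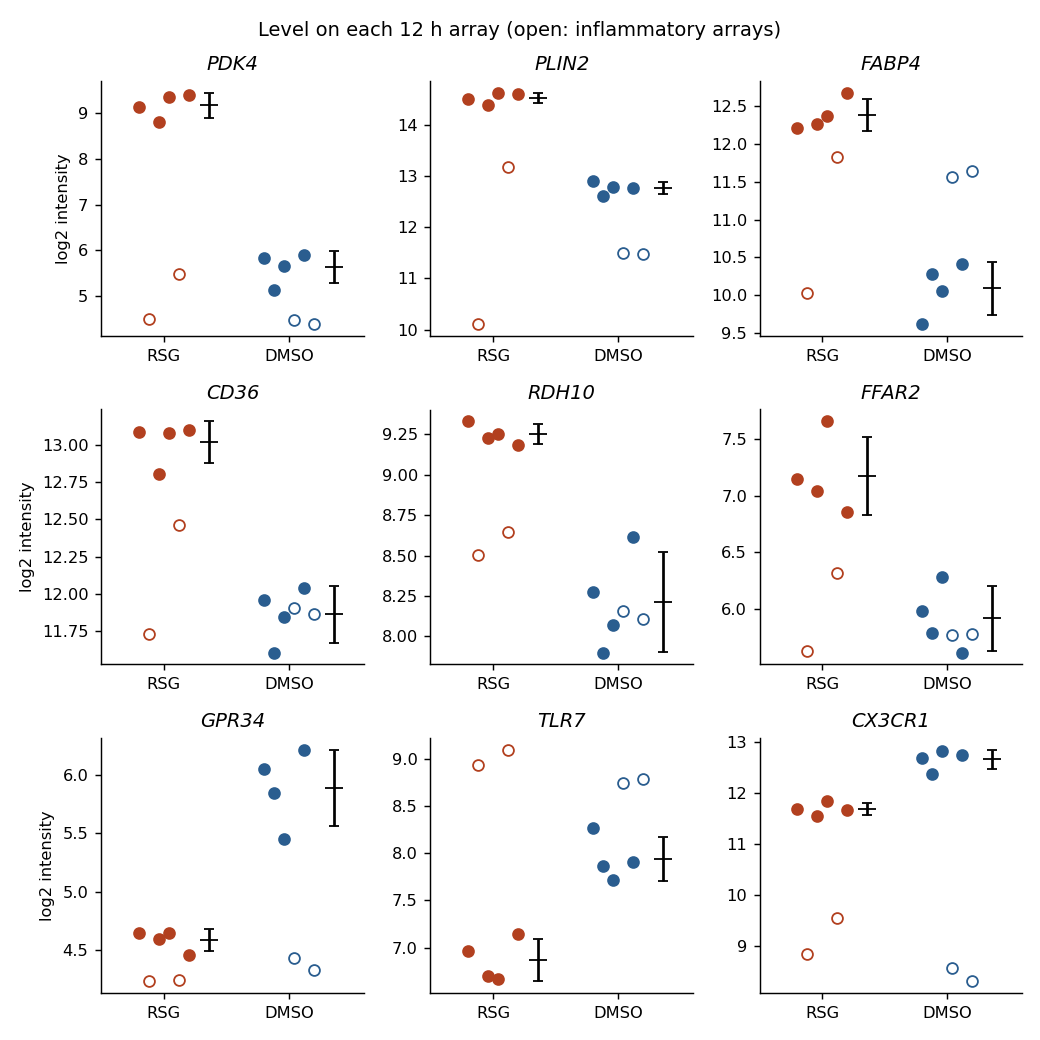
Log2 intensity of 9 genes (y axes) on each 12 h array of RSG, left, and DMSO, right, with the 4 inflammatory arrays as open circles and the mean and SD of the 4 other arrays as bars. PDK4 on the filled RSG arrays lies between 8.80 and 9.40, against 5.14 to 5.91 on the filled DMSO arrays, whereas the open RSG circles lie at 4.51 and 5.48.

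PDK4 showed the largest change of any gene called. This kinase phosphorylates and inactivates pyruvate dehydrogenase, which spares glucose and favours the burning of fatty acids. Its levels were 9.12, 8.80, 9.35 and 9.40 with RSG, against 5.84, 5.14, 5.66 and 5.91 with DMSO, where 3 of 4 arrays detected it. The rise was 11.6-fold (log2 difference 3.53, SE 0.52, adjusted p = 6.71e-06). On the inflammatory arrays PDK4 was 4.51 and 5.48 with RSG and 4.49 and 4.39 with DMSO, so that RSG replicate 5 stood well above both DMSO arrays and the array labelled RSG replicate 2 barely above them. With all arrays the log2 difference was 2.54 (SE 0.65, adjusted p = 0.274).

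Of 36 genes of fatty acid oxidation 5 rose and 1 fell, which is 16.7% called, beside 1.82% of all genes tested. A positive difference was found for 29, with a median of 0.20 beside -0.02 over all genes. SLC25A20, the carrier that moves acylcarnitines into mitochondria, stood at 9.33, 9.12, 9.01 and 8.65 with RSG and at 8.06, 7.87, 8.39 and 7.75 with DMSO. It rose 2.00-fold without overlap (log2 SE 0.19, adjusted p = 0.0006). ECH1, an enzyme of unsaturated fatty acid oxidation, rose by 0.48 (SE 0.10, adjusted p = 0.00292), ECI1, another, by 0.54 (SE 0.15, adjusted p = 0.0473) and the mitochondrial thiolase ACAA2 by 0.45 (SE 0.12, adjusted p = 0.0321). The calls of ECI1 and ACAA2 each held in 3 of the 8 fits without 1 array, with log2 differences of 0.40 to 0.69 for ECI1 and 0.40 to 0.52 for ACAA2. ECH1 and ACAA2 were picked with their values known.

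The exception in this list was ACAD11, a member of the acyl-CoA dehydrogenase family. It had 8.74, 8.35, 8.46 and 8.59 with RSG, against 9.42, 9.52, 9.31 and 9.21 with DMSO, and fell by 0.83 on the log2 scale with no overlap (SE 0.15, adjusted p = 0.000329). ACADM and HADH, which act on medium and short chains, were the brightest uncalled members, with log2 differences of 0.17 and 0.21 (limma, adjusted p = 0.788 and 0.568). Without each of the 8 arrays in turn the list held 3 to 5 rises and 1 fall.

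NR1H3, which encodes the oxysterol receptor LXR alpha, had 8.69, 8.54, 8.52 and 8.73 with RSG, against 7.86, 7.80, 7.73 and 7.69 with DMSO. It rose 1.80-fold (log2 difference 0.85, SE 0.18, adjusted p = 0.00269). The inflammatory arrays held NR1H3 higher than either group, at 9.87 and 9.74 with RSG and 9.99 and 10.32 with DMSO, and with all arrays the difference was 0.45 (SE 0.29, adjusted p = 1.00). LPCAT3, a phospholipid-remodelling enzyme and known LXR target, rose by 0.82 (SE 0.15, adjusted p = 0.000685), with 7.49 to 7.72 on the RSG arrays and 6.58 to 6.96 on the DMSO arrays. Of 19 genes of LXR and cholesterol efflux 2 rose and 0 fell (10.5% called, beside 1.82% of all genes tested), with a median of 0.08. ABCG1, an exporter of cholesterol picked after its values had been seen, depended on the probe. The brightest probe gave -0.06 (SE 0.16, adjusted p = 0.955), a second probe 1.03 (SE 0.27), which passed when every probe was tested on its own (adjusted p = 0.0334), and another 0.34.

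Among 17 sterol synthesis genes 0 were called by limma (1 at an unadjusted p under 0.05), 3 had a positive difference and the median was -0.30. SQLE and MSMO1, enzymes of the later steps and the brightest members, had log2 differences of -0.29 (SE 0.15, adjusted p = 0.52) and -0.34 (SE 0.18, adjusted p = 0.501). Of 15 fatty acid synthesis genes 0 were called (5 at an unadjusted p under 0.05), with a median of 0.06.

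A group of retinoid genes rose together with the lipid genes. Retinol is carried in cells by binding proteins, oxidised to retinal by dehydrogenases and then to retinoic acid, the ligand of the RAR receptors, by the ALDH1A enzymes. Of 17 genes of this pathway 4 rose and 0 fell, which is 23.5% called, beside 1.82% of all genes tested. In each of the 8 fits without 1 array 4 rose, while the list's median was 0.09. RBP7, a cellular retinol-binding protein, had 8.28, 7.93, 7.77 and 7.97 with RSG and 5.65, 5.74, 5.36 and 5.65 with DMSO. The gap between the groups was wide, a 5.23-fold rise (log2 SE 0.23, adjusted p = 3.28e-10). On the inflammatory arrays RBP7 was 4.65 and 4.73 with RSG and 4.41 and 4.59 with DMSO, and with all arrays the log2 difference was 1.65 (SE 0.42, adjusted p = 0.274).

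RDH10, the dehydrogenase that turns retinol into retinal, was the one gene of this pathway called with all arrays. Its levels were 9.33, 8.50, 9.23, 9.25, 8.65 and 9.18 on RSG replicates 1 to 6, against 8.28, 7.90, 8.07, 8.16, 8.61 and 8.11 on DMSO replicates 1 to 6. DMSO replicate 5 was the highest DMSO array and lay above the array labelled RSG replicate 2. The log2 difference was 0.84 with all arrays (SE 0.15, adjusted p = 0.0149) and 1.03 without the inflammatory arrays (SE 0.17, adjusted p = 7.89e-05). The call with all arrays held in 7 of 12 fits without 1 array and was lost without DMSO replicate 2 or any of RSG replicates 1, 3, 4 and 6, with log2 differences of 0.78 to 0.94.

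ALDH1A2, which makes retinoic acid, had 8.25, 7.94, 8.02 and 7.79 with RSG and 6.98, 7.20, 6.97 and 6.97 with DMSO. It rose 1.96-fold (SE of the log2 difference 0.16, adjusted p = 6.21e-05), and its dimmer probe gave a log2 difference of 0.33. RARA, a retinoic acid receptor, stood at 9.07, 8.87, 8.92 and 8.79 with RSG, against 8.07, 7.90, 8.52 and 8.09 with DMSO, and rose by 0.77 (SE 0.16, adjusted p = 0.00303), with 0.24 at its dimmer probe. DHRS3, which returns retinal to retinol, was higher on every RSG array (10.47 to 10.91, against 10.00 to 10.41 with DMSO) without passing the test (0.38, SE 0.17, adjusted p = 0.346).

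Receptors on the cell surface moved in both directions. Of 31 orphan and metabolite receptors coupled to G proteins 2 rose and 4 fell, which is 19.4% called, beside 1.82% of all genes tested. FFAR2, a receptor for short-chain fatty acids, had 7.15, 5.63, 7.04, 7.66, 6.31 and 6.86 on RSG replicates 1 to 6 and 5.98, 5.79, 6.28, 5.77, 5.61 and 5.78 on DMSO replicates 1 to 6. Apart from the array labelled RSG replicate 2, each RSG array was above every DMSO array. FFAR2 rose by 0.91 with all arrays (SE 0.18, adjusted p = 0.025) and by 1.26 without the inflammatory ones (SE 0.16, adjusted p = 1.95e-07). Its call with all arrays held in 5 of 12 fits without 1 array, with log2 differences of 0.73 to 1.14, and was lost without any of DMSO replicates 1, 2 and 5 or RSG replicates 1, 3, 4 and 6. NMUR1, a receptor of neuromedin U, was at 6.17, 6.20, 6.17 and 6.27 with RSG and detected on all 4 of these arrays, against 4.82, 5.19, 4.58 and 4.84 with DMSO, where it was detected on none. It was at least 2.08-fold higher, setting undetected arrays at the lowest signal of a detected probe (adjusted p = 0.00308).

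GPR34, a receptor for lysophosphatidylserine, ran the other way. It was detected on 0 of 6 RSG arrays, with 4.65, 4.24, 4.60, 4.65, 4.25 and 4.46 on replicates 1 to 6, and on 4 of 6 DMSO arrays, with 6.05, 5.84, 5.45, 4.44, 6.21 and 4.33. The 2 DMSO arrays that did not detect it were the inflammatory ones. GPR34 was at least 1.65-fold lower with RSG without those arrays (fitted log2 difference -1.30, SE 0.14, adjusted p = 8.73e-09) and at least 1.16-fold lower with all arrays (-0.91, SE 0.18, adjusted p = 0.025). The call with all arrays held in 4 of 12 fits without 1 array (-1.12 to -0.75) and was lost without any of DMSO replicates 1, 2, 3 and 5 or RSG replicates 1, 3, 4 and 6. GPR82, an orphan receptor whose gene like GPR34 lies on the X chromosome, had 5.99, 5.62, 5.45 and 5.14 with RSG, against 7.05, 5.79, 7.12 and 7.05 with DMSO. DMSO replicate 2 alone fell inside the RSG range, and the log2 difference was -1.21 (SE 0.22, adjusted p = 0.000306). S1PR1, a receptor of sphingosine 1-phosphate, and GPR84, a receptor for medium-chain fatty acids, were the other 2 that fell, by 0.63 (SE 0.13, adjusted p = 0.0035) and 0.54 (SE 0.14, adjusted p = 0.0274). GPR84 kept its call in 3 of the 8 fits (-0.66 to -0.40), and both receptors were picked with their values known.

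Of 13 chemokine receptors 0 rose and 2 fell, which is 15.4% called, beside 1.82% of all genes tested. CX3CR1, the receptor for fractalkine, had 11.69, 11.56, 11.85 and 11.67 with RSG, against 12.70, 12.38, 12.83 and 12.75 with DMSO. The groups were well apart and the fall was 0.97 on the log2 scale (SE 0.18, adjusted p = 0.000329). CCR1, which binds CCL3 and CCL5, stood at 9.07 to 9.50 with RSG and 9.80 to 10.09 with DMSO (log2 difference -0.71, SE 0.14, adjusted p = 0.00206). On the inflammatory arrays CX3CR1 was far lower in both groups, at 8.83 and 9.55 with RSG and 8.57 and 8.30 with DMSO.

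Among 20 Toll-like receptors and partners 1 rose and 1 fell, which is 10% called, beside 1.82% of all genes tested. TLR4, the receptor for endotoxin, had 8.86, 8.72, 9.05 and 8.75 with RSG and 7.90, 7.33, 8.05 and 8.05 with DMSO, a 2.01-fold rise (log2 SE 0.21, adjusted p = 0.00214). TLR7, which senses single-stranded RNA in endosomes, had 6.96, 6.71, 6.67 and 7.14 with RSG, against 8.27, 7.86, 7.72 and 7.91 with DMSO. It fell by 1.07 on the log2 scale with no overlap (SE 0.19, adjusted p = 0.000271), and the inflammatory arrays held TLR7 higher than either group, at 8.93 and 9.09 with RSG and 8.74 and 8.78 with DMSO. CD14 and LY96, the partners of TLR4 at the membrane, overlapped between the groups (0.14 and -0.26, adjusted p = 0.842 and 0.571).

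Several genes of intracellular signalling rose strongly. RCAN1, an inhibitor of the phosphatase calcineurin, had 12.28, 12.27, 12.23 and 12.01 with RSG and 10.51, 10.79, 10.67 and 10.73 with DMSO. It rose 2.87-fold (log2 SE 0.17, adjusted p = 1.65e-08), and its other probes gave 2.29 and 0.31. The probe of 0.31 was dim, with mean levels of 5.32 in RSG and 5.01 in DMSO. On the inflammatory arrays RCAN1 was 11.49 and 11.09 with RSG and 11.69 and 11.53 with DMSO. ITPR3, a calcium release channel of the endoplasmic reticulum, stood at 8.74, 8.74, 9.15 and 8.85 with RSG, against 8.18, 7.14, 7.78 and 7.71 with DMSO, and rose 2.25-fold (log2 SE 0.21, adjusted p = 0.000239). These were the 2 called of 27 genes of calcineurin and calcium handling (7.41%, beside 1.82% of all genes tested), whose median was -0.06.

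FGR, a Src family kinase of myeloid cells, had 10.02, 10.09, 10.34 and 10.05 with RSG and 8.96, 9.69, 9.14 and 8.30 with DMSO. Despite the wide DMSO range the groups did not overlap, and the log2 difference was 1.10 (SE 0.16, adjusted p = 7.68e-06). The other probes gave 0.93 and 0.02, the latter on a dim probe with mean levels of 4.96 in RSG and 4.94 in DMSO. LFNG, a glycosyltransferase that modifies Notch receptors, was at 8.95, 8.87, 9.54 and 9.45 with RSG, against 7.78, 8.16, 7.85 and 7.42 with DMSO (log2 difference 1.40, SE 0.23, adjusted p = 5.54e-05), with 0.34 at a dimmer probe. It was the 1 gene called of 27 in the Notch pathway (3.70%, beside 1.82% of all genes tested). PHLDA3, a p53 target that binds the lipids that recruit AKT, rose by 1.42 (SE 0.27, adjusted p = 0.000685), with 8.23 to 8.38 in RSG and 6.68 to 7.17 in DMSO.

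TPD52L1, of the tumour protein D52 family, had 7.84, 7.64, 7.93 and 7.99 with RSG and 6.44, 6.14, 6.27 and 6.19 with DMSO, a 3.01-fold rise (log2 SE 0.18, adjusted p = 1.04e-08), and its second probe gave 1.35. AGRP, known as an antagonist of melanocortin receptors in the hypothalamus, stood at 6.51, 6.57, 6.30 and 6.52 with RSG, against 4.98, 5.17, 4.56 and 5.17 with DMSO, where 1 of 4 arrays detected it. The log2 difference was 1.51 (SE 0.18, adjusted p = 8.29e-08). GPA33, a surface antigen of gut epithelium, rose by 1.27 (SE 0.18, adjusted p = 3.07e-06), SOWAHC by 1.52 (SE 0.26, adjusted p = 0.000177) and TRNP1 by 1.32 (SE 0.22, adjusted p = 6.49e-05). PDGFRL, which resembles a PDGF receptor, was at 10.29 to 10.66 with RSG and 9.07 to 9.44 with DMSO (log2 difference 1.23, SE 0.14, adjusted p = 1.04e-08), but at 11.22 and 9.78 on the inflammatory RSG arrays and 11.02 and 11.26 on the inflammatory DMSO arrays. KLRC1, a lectin receptor of natural killer cells whose paralogs are nearly identical, rose by 1.19 (SE 0.15, adjusted p = 1.38e-07). Its probe was above background on all 4 RSG arrays but on 1 of the 4 DMSO arrays. The paralog KLRC3, picked with its values known, was called in the other direction. That fall kept its call in 2 of the 8 fits without 1 array (-0.71 to -0.45). None of 5 natural killer cell markers was called (1 at an unadjusted p under 0.05).

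Transcription factors of the immediate early list gave 2 rises of 27 (7.41%, beside 1.82% of all genes tested that were called), with a median of 0.14. KLF4 had 9.97 to 10.21 with RSG, against 9.02 to 9.45 with DMSO, a log2 difference of 0.82 (SE 0.22, adjusted p = 0.0385), but its call held in none of the 8 fits without 1 array, with values of 0.74 to 0.89. ATF3 rose by 0.53 (SE 0.14, adjusted p = 0.0224) and kept its call in 3 of 8 fits (0.45 to 0.62). KLF11, a zinc finger factor picked with its values known, rose by 0.62 (SE 0.13, adjusted p = 0.00206) and kept it in all 8.

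THBS2, a matrix glycoprotein that inhibits vessel growth, had 6.70, 6.72, 6.64 and 6.19 with RSG, against 7.87, 7.81, 8.04 and 7.59 with DMSO, and fell by 1.27 on the log2 scale (SE 0.20, adjusted p = 4.57e-05). CEMIP, which takes part in hyaluronan breakdown, was at 5.83, 5.87, 6.70 and 6.11 with RSG and at 7.06, 8.90, 7.17 and 6.32 with DMSO. Its fall of -1.23 (SE 0.28, adjusted p = 0.00643) leaned on DMSO replicate 2, without which the difference was -0.72 and was not called. BIN1, which bends membranes, had 8.87, 9.26, 9.78 and 9.71 with RSG, against 10.43, 11.00, 10.51 and 10.01 with DMSO (log2 difference -1.08, SE 0.18, adjusted p = 6.21e-05), and its second probe gave -0.91. Of 37 genes of matrix and proteases 2 rose and 2 fell, which is 10.8% called, beside 1.82% of all genes tested. ADAM19, a membrane metalloprotease, fell by 0.91 (SE 0.22, adjusted p = 0.018) with the call kept in 4 of 8 fits (-1.05 to -0.78), whereas the basement membrane collagen COL4A1 rose by 0.70 (SE 0.14, adjusted p = 0.00206) and the proteoglycan VCAN by 0.73 (SE 0.20, adjusted p = 0.039), VCAN in 3 of 8 fits (0.62 to 0.82).

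Genes better known from other tissues were among the falls. OLIG2, a factor of the oligodendrocyte lineage, lay at 6.85 to 6.97 with RSG and 7.69 to 7.84 with DMSO, tight in both groups (log2 difference -0.84, SE 0.15, adjusted p = 0.000247), while the 4 inflammatory arrays held OLIG2 between 9.36 and 10.26. NPTX1, a neuronal pentraxin, fell by 0.88 (SE 0.19, adjusted p = 0.00303), and ACP3, the acid phosphatase of prostate, by 0.86 (SE 0.13, adjusted p = 8.56e-06). PYROXD2 had 8.63 to 9.04 with RSG, against 9.43 to 9.94 with DMSO (log2 difference -0.84, SE 0.11, adjusted p = 7.15e-07). SERPINI1, an inhibitor of serine proteases, fell by 0.84 (SE 0.23, adjusted p = 0.0373; 3 of 8 fits, -0.97 to -0.67) and IGSF6 by 0.81 (SE 0.19, adjusted p = 0.0096; 6 of 8 fits, lost without RSG replicate 4 or RSG replicate 6, -0.94 to -0.66).

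Of 22 macrophage markers 1 rose, which was CD36, and 3 fell, with a median of -0.08. The share called was 18.2%, beside 1.82% of all genes tested. FCER1G, the signalling chain of Fc receptors, had 14.18, 14.43, 14.33 and 14.02 with RSG, against 14.49, 14.66, 14.55 and 14.72 with DMSO (log2 difference -0.36, SE 0.10, adjusted p = 0.0385). CD163, the haemoglobin scavenger receptor, fell by 0.52 (SE 0.14, adjusted p = 0.0385) and FCGR2A, an Fc receptor with near-identical paralogs, by 0.60 (SE 0.16, adjusted p = 0.0267). These calls were fragile, held in 3 fits of 8 for FCER1G (-0.43 to -0.29) and CD163 (-0.60 to -0.44) and in 4 for FCGR2A (-0.68 to -0.50), and the second FCGR2A probe gave -0.12. CSF1R, the receptor of macrophage colony-stimulating factor, missed the threshold (-0.28, SE 0.08, adjusted p = 0.0624).

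Of 20 dendritic markers 2 fell, which is 10%, beside 1.82% of all genes tested that were called. At an unadjusted p under 0.05 in limma the count was 8 of 20, beside 1245 of the 11515 tested. The 2 falls were the lectin CD209 by 0.59 (SE 0.12, adjusted p = 0.00234) and CD1C, which presents lipid antigens, by 0.56 (SE 0.15, adjusted p = 0.0346, 3 of 8 fits, -0.67 to -0.47). The median of this list was -0.09. STING1, an adaptor of the response to cytosolic DNA that was picked with its values known, fell by 0.55 (SE 0.09, adjusted p = 2.83e-05). Of 37 interferon response genes 1 rose, IRF1, by 0.72 (SE 0.19, adjusted p = 0.0321; 2 of 8 fits, 0.65 to 0.79), with a list median of 0.02. None of 30 inflammatory cytokine and NF-kB genes, 20 inflammatory chemokines or 8 MHC class II genes was called by limma (3, 3 and 0 at an unadjusted p under 0.05), with medians of -0.04, -0.02 and -0.10. CD74, the invariant chain of class II molecules, had a log2 difference of -0.27 (SE 0.17, adjusted p = 0.658).

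Metabolic lists outside lipids held 0 to 2 calls each. The shares called were 5.13% for glycolysis and hypoxia and 6.25% for NRF2 and glutathione, beside 1.82% of all genes tested. Of 39 glycolysis and hypoxia genes 2 fell. PFKP, a phosphofructokinase, was at 9.89 to 10.16 with RSG and 10.44 to 11.04 with DMSO (log2 difference -0.60, SE 0.10, adjusted p = 0.000116), and the glucose transporter SLC2A3 had a log2 difference of -0.52 (SE 0.12, adjusted p = 0.0103), which was not called without DMSO replicate 2 (-0.35) or without RSG replicate 3. None of 56 oxidative phosphorylation genes was called (0 at an unadjusted p under 0.05), with a median of -0.01. Of 32 NRF2 and glutathione genes 2 rose, the microsomal transferases MGST1 by 0.56 (SE 0.11, adjusted p = 0.00189) and MGST2 by 0.45 (SE 0.12, adjusted p = 0.0393; 2 of 8 fits, 0.39 to 0.53). Of 47 lysosome genes the membrane protein SCARB2 rose by 0.39 (SE 0.08, adjusted p = 0.00389) and the sulfatase IDS fell by 0.37 (SE 0.07, adjusted p = 0.000685). DDIT4, an inhibitor of the growth kinase mTORC1 in the ER stress list, fell by 0.71 (SE 0.16, adjusted p = 0.0096; lost without DMSO replicate 5 or RSG replicate 6, -0.79 to -0.60). SESN1, a stress-response gene in the p53 target list, fell by 0.54 (SE 0.14, adjusted p = 0.02; 5 of 8 fits, -0.67 to -0.43).

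Cell cycle genes were higher with RSG as 2 broad groups, but in a way that leaned on 1 array. Of 54 genes of G1/S and DNA replication 7 rose and 51 had a positive difference, with a median of 0.39, and of 56 mitosis genes 5 rose and 53 were positive, with a median of 0.32, beside -0.02 over all genes. RRM2, a subunit of ribonucleotide reductase, had 9.94, 9.92, 9.56 and 8.95 with RSG, against 8.99, 6.92, 9.38 and 9.06 with DMSO. DMSO replicate 2 was far below the other DMSO arrays, which overlapped the RSG arrays, and the log2 difference was 1.01 (SE 0.25, adjusted p = 0.0187). E2F2, a transcription factor that drives S phase genes, stood at 11.19, 11.17, 11.04 and 10.81 with RSG and at 10.62, 9.48, 10.58 and 10.69 with DMSO (0.71, SE 0.19, adjusted p = 0.0381). CDT1, which licenses replication origins, rose by 0.67 (SE 0.17, adjusted p = 0.0198), E2F8 by 0.81 (SE 0.22, adjusted p = 0.0308) and, among mitosis genes, CENPM of the centromere by 0.59 (SE 0.13, adjusted p = 0.00634).

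Without DMSO replicate 2 none of the 54 replication genes and none of the 56 mitosis genes was called by limma (13 and 7 at an unadjusted p under 0.05), though 50 and 51 stayed positive and the medians were 0.24 and 0.17. Without RSG replicate 1 the counts were 0 and 1, with medians of 0.35 and 0.29, and over all 8 fits the counts of rises ran from 0 to 9 and from 0 to 16. The mean level of the replication list was 9.90 to 10.10 on the RSG arrays and 9.75 to 9.80 on DMSO replicates 1, 3 and 5, but 9.20 on DMSO replicate 2. For the mitosis list it was 8.48 to 8.73 with RSG and 8.35 to 8.50 on DMSO replicates 1, 3 and 5, but 7.77 on DMSO replicate 2. Those levels of DMSO replicate 2 were close to the DMSO arrays of 8 h, which ran from 9.28 to 9.46 and from 7.77 to 7.87. The inflammatory arrays lay lower still for replication, at 8.98 and 9.19 with RSG, with both DMSO arrays between these levels. The part of DMSO replicate 2 in single calls shows in RRM2, called in 5 of 8 fits (0.45 without that array), E2F2 and CDT1 in 4 (0.42 and 0.55 as lowest values), E2F8 in 3 (0.47 as lowest) and CENPM in 7 (0.44 without that array). BIRC5, CCNA2 and PLK4, regulators of mitosis and centriole number, had rises of 0.58, 0.53 and 0.49, called in 3, 4 and 4 of 8 fits. CDC20 and CCND3, taken from the brightest uncalled members of the lists, had log2 differences of 0.30 and 0.18 (limma, adjusted p = 0.321 and 0.573).

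**Figure D3:**
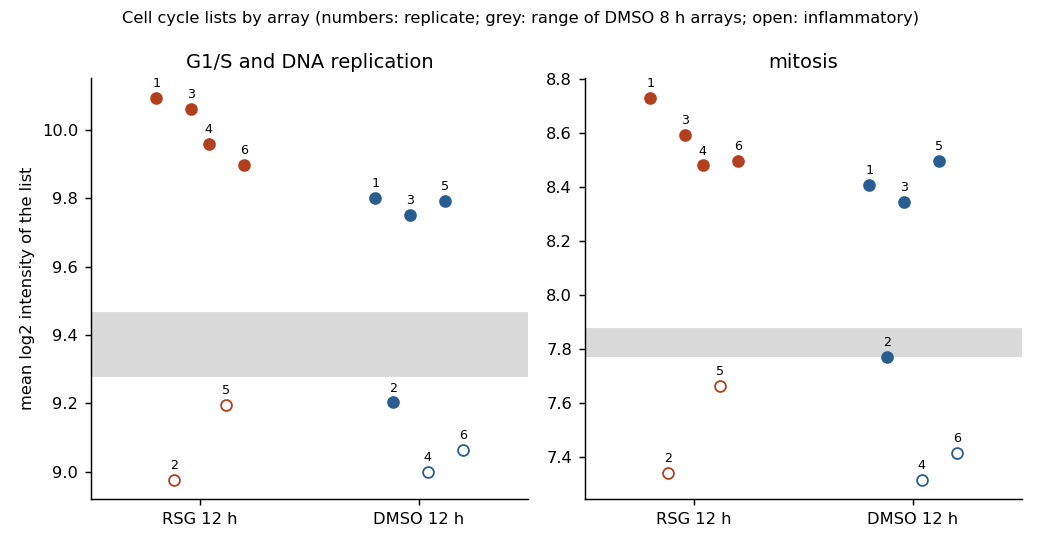
Mean log2 intensity (y axes) of 54 replication genes, left panel, and 56 mitosis genes, right panel, on each 12 h array of RSG and DMSO, numbered by replicate, with open circles for inflammatory arrays and a grey band for the range of the DMSO 8 h arrays. DMSO replicate 2 at 9.20 and 7.77 lies by or below the band, away from the other filled DMSO circles.

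Promoter sequence was looked at for motifs of both kinds of factor, the nuclear receptors and the E2F factors. RefSeq promoters on GRCh38.p14, from 250 bases before to 50 after each start site, were matched by symbol for 107 of the 134 genes that rose, 61 of the 76 that fell and 9481 of the 11515 tested. The DR1 element, which is AGGTCA in direct repeat with 1 base between the copies and to which PPARG and RXR bind, was searched on both strands and occurred in 0 of 107 rises and 0 of 61 falls, beside 5 of the 9481, or 0.0527%. At so low a share, 0 among 107 or 61 promoters does not show that these genes lack the element. Only its exact letters were searched, and the study placed most PPARG/RXR sites farther from start sites than these windows reach. A single AGGTCA, which the repeat also holds, occurred in 15% of the rises and 14.8% of the falls, beside 14.2% of all tested. The E2F sites TTTGGCGC and TTTCGCGC occurred in 10 of 107 rises (9.35%) and 0 of 61 falls, beside 2.44% of all tested and 34.1% of the replication list's 44 promoters. Most of these 10 calls leaned on DMSO replicate 2. Without it ARHGAP11B, CDC6, DNAJC9, E2F2, EXO1, EZH2 and STMN1 were not called, whereas DPYSL3, DYSF and MGST1 were. DPYSL3 kept its call in only 4 of the 8 fits without 1 array (0.43 to 0.60). It was lost without DMSO replicate 3 or 5 or RSG replicate 4 or 6. ARHGAP11B and EZH2 each kept their calls in 3 of 8 fits and DNAJC9 in 5. Each of the following stretches of 60 bases before a start site is shown, in the gene's direction, because it places the motif in a gene that rose, with the E2F site in capitals:
E2F2: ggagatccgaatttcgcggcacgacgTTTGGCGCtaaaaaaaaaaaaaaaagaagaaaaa
STMN1: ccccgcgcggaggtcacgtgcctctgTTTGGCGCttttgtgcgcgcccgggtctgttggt
DYSF: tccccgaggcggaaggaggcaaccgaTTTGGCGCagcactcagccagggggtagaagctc
The E2F2 stretch is chr1:23531242-23531301 on the minus strand, with the site's first base 42 bases before the start. For STMN1 it is chr1:25906424-25906483 on the minus strand, at 38 bases before, and for DYSF chr2:71453476-71453535 on the plus strand, at 59 bases before. A match is a description of letters and not evidence of binding.

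STMN1 and DYSF were picked with their values and promoters known. STMN1, which destabilises microtubules, had 11.00, 10.83, 10.54 and 10.46 with RSG, against 10.26, 9.19, 10.17 and 10.48 with DMSO (log2 difference 0.68, SE 0.16, adjusted p = 0.0096), and lost its call without DMSO replicate 2 (0.40) or without RSG replicate 1. DYSF, which takes part in membrane repair, behaved unlike the cell cycle genes across the DMSO arrays. Its levels were 8.67, 9.06, 8.68 and 8.30 with RSG, against 7.11, 7.58, 7.51 and 7.90 with DMSO, with DMSO replicate 2 in the middle of its group, and it rose 2.22-fold (log2 SE 0.21, adjusted p = 0.0005), a call that held in all 8 fits (1.02 to 1.28). CDC6, which loads the replicative helicase, and EXO1, a repair nuclease, also carried the motif and rose by 0.46 (SE 0.12, adjusted p = 0.0224) and 0.52 (SE 0.14, adjusted p = 0.029), each in 4 of 8 fits (0.41 to 0.51 and 0.29 to 0.66).

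Genes near binding of PPARG and RXR, as the study mapped it in THP-1 cells and set it beside mouse macrophages, were counted too, with lists rebuilt here from its binding tables that may differ from its own target lists. Of 61 tested genes bound at a shared position in both species, 13 rose and 0 fell, with a median of 0.12. Of 148 genes bound in both species at different positions, 8 rose and 1 fell, with a median of 0.00, and of 851 tested genes near a site in human cells and on neither shared list, 33 rose and 12 fell, with a median of 0.01. The background was 1.16% rises and 0.66% falls. These counts describe the lists, and no test was made of them.

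How the 12 h changes related to earlier times was tested on the difference of differences. At 8 h, with its own DMSO arrays, 91 genes rose and 41 fell in the 54 arrays, and 66 of the rises and 24 of the falls were among those of 12 h. The change at 12 h differed from that at 8 h for 0 genes in limma with 54 arrays (262 at an unadjusted p under 0.05) and for 0 with 59 (113), and for 3 in the authors' scaled table. Against 1.5 h the change differed for 25 genes, or 0.217%, with 18 more positive and 7 more negative at 12 h, and for 0 with all arrays (126 at an unadjusted p under 0.05). PDK4 was not among them, at 2.64 at 1.5 h and 3.53 at 12 h. FABP4 had 0.30 at 1.5 h, 0.17 at 3 h, 1.55 at 8 h and 2.29 at 12 h (difference to 1.5 h adjusted p = 3.22e-05). CD36 had 0.00, 0.29, 1.05 and 1.15 at these times, and GPR34 -0.07, 0.07, -0.93 and -1.30. Falls that were past the test at 12 h but small before included BIN1, at 0.03, -0.05, -0.48 and -1.08. Of the 210 genes called at 12 h, 24 also differed between DMSO at 12 and 8 h, where 434 of all genes (3.77%) did.

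**Figure D4:**
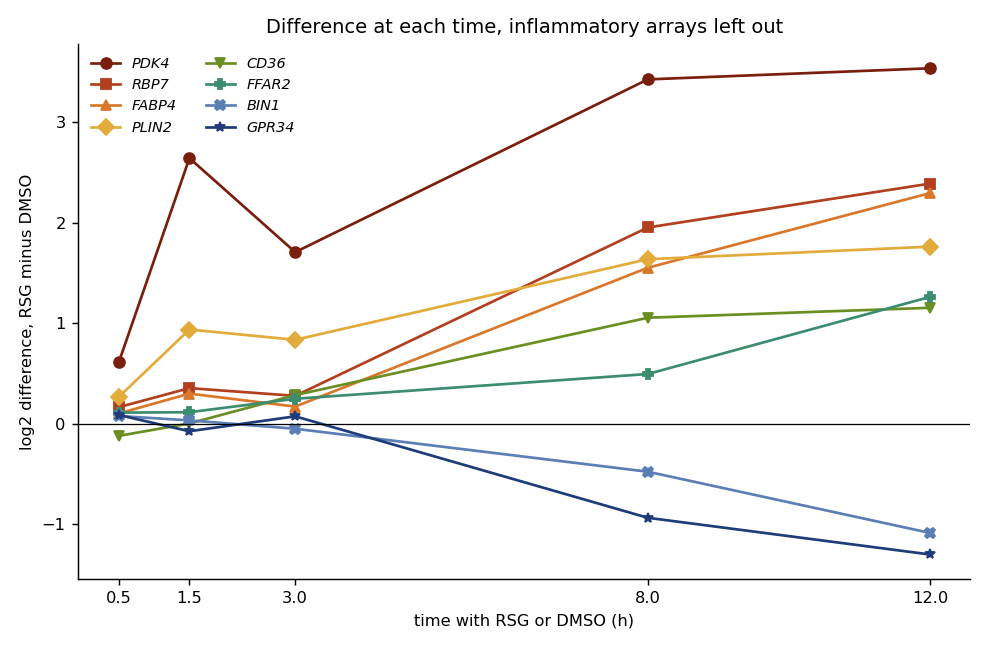
Log2 difference between RSG and DMSO (y axis) of 8 genes at 0.5, 1.5, 3, 8 and 12 h (x axis) in the 54 arrays without the inflammatory profile. PDK4 reaches 2.64 by 1.5 h, whereas FABP4, RBP7 and CD36 reach at most 0.35 up to 3 h, and GPR34 and BIN1 stand at -0.93 and -0.48 at 8 h.

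Between the 2 RSG and 2 DMSO arrays with that profile, 72 of the 134 rises had a positive difference and 20 of the 76 falls a negative one, with medians of 0.03 and 0.21 beside 0.03 over all genes. The array labelled RSG replicate 2 lay above both inflammatory DMSO arrays in 18 of the 134 rises, with a median difference of -0.14 to their mean. RSG replicate 5 lay above both in 82 of 134, with a median of 0.22. The pooled values thus rest in part on the array labelled RSG replicate 2, and whether its label is right was not tested. PLIN2 and FFAR2 were above the inflammatory DMSO arrays on RSG replicate 5 and below them on the array labelled replicate 2. PDK4 stood above the inflammatory DMSO arrays by far more on replicate 5 (5.48) than on replicate 2 (4.51, against 4.49 and 4.39 with DMSO). These PDK4 levels other than 5.48 are near background, so the small gap on replicate 2 cannot be read as a difference. RDH10 was above the inflammatory DMSO arrays on both. Among the genes that fell, TLR7, CX3CR1 and ACP3 were higher on both inflammatory RSG arrays than on the inflammatory DMSO arrays. With 2 arrays per group no test was made of these differences.

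**Figure D5:**
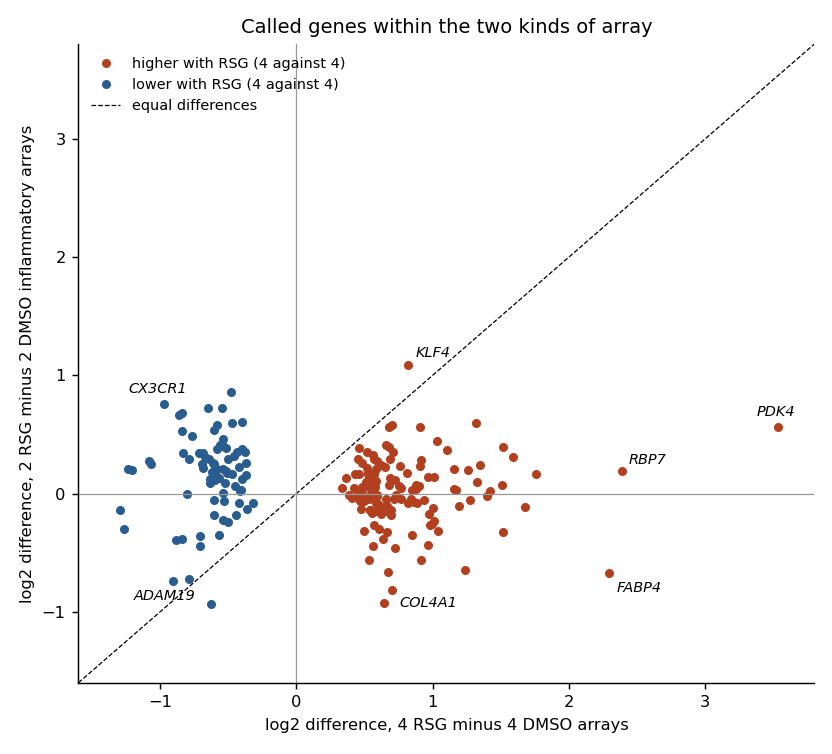
Log2 difference between RSG and DMSO of the 210 called genes within the 4 against 4 arrays without the inflammatory profile (x axis) and within the 2 against 2 inflammatory arrays (y axis), with rises in red, falls in blue and a dashed line of equal differences. The red points spread about a median of 0.03 on the y axis, and FABP4 lies at -0.68 there.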

How the data were processed

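Transcripts were measured on Illumina HumanRef-8 bead arrays. The deposited signal table holds mean bead intensity per probe, raw and not scaled by the authors, beside a detection p-value that the authors' software gave for each value. A second deposited table holds intensity that the authors had background-subtracted and scaled to a common array mean, and it served as an alternative. Intensities were corrected by neqc of limma 3.58.1 in R 4.3.3, which fits a normal-exponential model, adds an offset (here 16), normalizes by quantiles and takes log2, so that a fold change of a dim gene is understated. A probe had to be detected (p under 0.01) on 5 or more arrays. GEO's annotation gave 21834 probes 1 symbol and 2692 none. Each gene was taken from its brightest probe, which gave 11515 genes. A mean per group was fitted in limma and RSG_12h was compared with DMSO_12h by the two-sided moderated test with Benjamini-Hochberg adjustment over all genes at 0.05, with 59 arrays and with 54. The fit was tested on simulated data.

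The members and gene lists were chosen with earlier results of these data known, and the binding lists were rebuilt from the study's binding tables. Genes were named by a rule: the 15 largest rises and falls that 50% or more of the higher group's arrays detected, all genes called with 59 arrays, a few genes the study discusses, up to 4 called and 2 of the brightest uncalled members of each list, and the 5 smallest adjusted p of each difference between times. Not every gene that this rule gave is named in the text, and other members are given as counts. Alternatives changed the normalization, filter, probe, weights, block or arrays. Arrays were not treated as paired by replicate number, and whether the numbers pair them could not be settled. Over the 12 arrays, numbers 2, 4, 5 and 6 each join an inflammatory array with one of the other kind. Their residual correlations between RSG and DMSO were -0.70, -0.82, -0.78 and -0.81, against 0.73 and 0.60 for numbers 1 and 3. Among the 8 arrays only numbers 1 and 3 occur in both treatments, with 0.13 and -0.15.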

Additional observations from a re-analysis of the deposited data

Results flagged for a closer look

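In 234 groups of 4 or 6 arrays of the named genes, 17 held 1 array far from the rest by Dixon's ratio, where chance gives about 5%. Among the 6 RSG arrays, replicate 2 was low for FABP4 at a log2 intensity of 10.0, against 11.8 to 12.7 on the others, and for PLIN2 at 10.1, against 13.2 to 14.6, and replicate 5 was high for FGR at 11.4, against 10.0 to 10.3. Among the 4 RSG arrays without the inflammatory profile, replicate 4 was low for ANGPTL4 at 6.64, replicate 3 for CD36 at 12.8, and replicate 6 for THBS2 at 6.19 and for S1PR1 at 5.04. Among the 4 such DMSO arrays, replicate 2 was low for 5 genes, with GPR82 at 5.79, RRM2 at 6.92, E2F2 at 9.48, CENPM at 9.02 and PLK4 at 8.52, and high for ALDH1A2 at 7.20. DMSO replicate 5 was low for ADAM19 at 7.59 and high for DDIT4 at 7.50, and DMSO replicate 1 was high for NPTX1 at 10.9 and for PPARG at 11.3.

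For 18 named genes the change with RSG at 12 h differed from that at 1.5 h in limma with 54 arrays, and for 0 with all 59. The difference between the log2 differences was 2.03 for RBP7, 1.99 for FABP4, 1.47 for TPD52L1, 1.41 for AGRP, 1.23 for RCAN1, 1.15 for CD36, 1.15 for FFAR2, 1.13 for KLRC1, 1.09 for PDGFRL, 1.04 for GPA33, 0.96 for FGR and 0.94 for ALDH1A2. It was -1.22 for GPR34, -1.12 for BIN1, -0.80 for ACP3, -0.79 for PYROXD2, -0.66 for PFKP and -0.42 for IDS.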

How the results depend on the processing

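The alternatives drew on the arrays that had picked the called genes, so a kept direction was no separate check. All 210 genes called at 12 h without the inflammatory arrays kept their direction under each alternative that measured them. Their number was 135 with average normalization, 59 with only the 2 groups compared in the fit, 67 with RSG 8 h replicate 1 kept, 124 at a fold of 1.5 and 119 to 228 without 1 array, and between 177 and 256 under the other normalizations, filters, probe choices, weights and variance prior. With all arrays the count of 3 became 5 in the authors' scaled table, 0 with average normalization or with only the groups compared, 109 with array weights, 44 with the inflammatory arrays as a block and 0 to 33 without 1 array. Genes that differed from 8 h numbered 3 in the authors' scaled table, and those that differed from 1.5 h 13 with average normalization, 50 with array weights and 17 to 38 without 1 array, or 21 with array weights and all arrays. With the replicate number as a block, 140 genes were called in place of 210, all 140 among them. The count was 19 in place of 25 against 1.5 h, and 4 in place of 3 with all arrays. The labels do not say whether equal numbers mark paired arrays. ABCG1 was 0.43 with the mean of its probes and RXRA ran from -0.22 to 0.00866 without 1 array, the highest without DMSO replicate 5. The causes were not tested. Signal near background limits NMUR1, GPR34, AGRP and KLRC1, and also PDK4 and RBP7 on the inflammatory arrays. The probe-level test, added after the data had been seen, called 233 of 13877 probes.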
